A study of Mus musculus with 4 samples.

Results

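Pax7 occupancy around 4 genes of the pituitary melanotrope, Pomc, Pcsk2, Tbx19 and Drd2, was examined in mouse skeletal muscle progenitors. Peaks of the Pax7 ChIP-seq list were taken when the summit, the position of highest signal, fell between 100 kb before the start and 100 kb after the end of the gene in GENCODE vM1. This gave 15 peaks out of 20579, with 1 at Pomc, 4 at Pcsk2, 7 at Tbx19 and 3 at Drd2, and no peak was shared between genes. The rule used the position of the summit alone, so the strength and sequence of the peaks were free to vary. Their annotation was not wholly free, because the rule takes only summits in or within 100 kb of a coding gene.

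The cells were iPax7 cells, mouse ES cells with a doxycycline (Dox)-inducible Pax7 transgene. Dox was added at 1 µg/ml on day 3 of serum differentiation, PDGFRα+FLK1- cells were sorted on day 5 and grown with Dox and 10 ng/ml basic FGF, and cells were harvested on day 9, after 6 days of Dox. Chromatin from these cells gave 2 Pax7 ChIP libraries and 2 input libraries, all with the transgene and Dox, so no sample without induction was analysed, and transgenic and endogenous Pax7 cannot be told apart. The authors merged replicates before calling peaks. The single list therefore has no replicate error, no library can be left out of it and no test over samples can be made, and since it holds no read counts the depth behind each peak is unknown from it. A peak list measures no transcript, so neither the identity of the cells nor the expression of the 4 genes could be checked against marker levels.

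Melanotropes are the endocrine cells of the intermediate lobe of the pituitary. Pax7 is known there as the factor that selects melanotrope over corticotrope fate, and it acts as a pioneer that opens enhancers in closed chromatin. Both cell types use the T-box factor Tbx19 (Tpit) to transcribe Pomc, the precursor of ACTH and of α-melanocyte stimulating hormone. Melanotropes also make the convertase PC2, the product of Pcsk2, which cleaves ACTH further, and the dopamine receptor encoded by Drd2, through which the hypothalamus restrains their secretion. In muscle, Pax7 marks satellite cells and their precursors. The comparison asks whether Pax7 in muscle progenitors also occupies chromatin near these genes.

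The summit sequences that the results turn on are printed here on the plus strand of mm9, 50 bp to either side of the summit. They are the only Pomc peak, the 3 peaks inside Pcsk2, and the peaks closest to the TSS of Tbx19 and Drd2. In the Pomc sequence and the first 2 Pcsk2 sequences capitals mark Pax letters: the paired-box core GTCACG, or in the second Pcsk2 peak the homeobox plus paired letters ATTAGTCAC on the minus strand. In the Pcsk2 sequence labelled 3 they mark the T-box letters TCACACC on the minus strand, and in the Tbx19 sequence the E-boxes CANNTG, the sites bound by bHLH factors. None of these was found in the Drd2 sequence. E-boxes also lie in the Pomc sequence and that of Pcsk2 peak 2, where they are left in lower case. Of the 15 peaks 9 had an E-box within 50 bp (60.0%), as did 49.7% of all summits.
Pomc, chr12:3917775-3917875: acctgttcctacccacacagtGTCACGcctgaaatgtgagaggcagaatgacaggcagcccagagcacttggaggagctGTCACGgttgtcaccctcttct
Pcsk2 peak 1, chr2:143508213-143508313: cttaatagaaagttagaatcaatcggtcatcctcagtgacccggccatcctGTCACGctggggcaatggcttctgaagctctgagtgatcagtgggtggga
Pcsk2 peak 2, chr2:143632887-143632987: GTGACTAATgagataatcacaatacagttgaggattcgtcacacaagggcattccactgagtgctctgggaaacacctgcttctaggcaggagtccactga
Pcsk2 peak 3, chr2:143638039-143638139: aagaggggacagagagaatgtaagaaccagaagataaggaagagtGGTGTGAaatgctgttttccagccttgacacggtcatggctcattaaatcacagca
Tbx19 intron, chr1:167089158-167089258: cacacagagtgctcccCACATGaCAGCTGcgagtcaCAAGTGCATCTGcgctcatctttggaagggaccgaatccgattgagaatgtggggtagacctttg
Drd2 upstream, chr9:49146706-49146806: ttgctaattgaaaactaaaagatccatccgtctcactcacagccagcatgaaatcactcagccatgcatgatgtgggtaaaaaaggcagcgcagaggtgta

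All 4 genes had at least 1 Pax7 summit within 100 kb. So did 75.2% of the 22350 protein-coding genes of chromosomes 1 to 19 and X, so binding at this distance was common in the genome and does not set the 4 genes apart. None of the 4 had a summit within 1 kb of a TSS of its own, where 14.1% of protein-coding genes had one. A summit inside the gene was present in Pcsk2, Tbx19 and Drd2, against 22.3% of protein-coding genes, a share that depends on gene length. The peaks nearest to the TSS were 1.70 kb away at Tbx19, 1.98 kb at Drd2, 37.1 kb at Pomc and 136 kb at Pcsk2. The median over protein-coding genes was 41.0 kb, so Tbx19 and Drd2 had a Pax7 summit much closer than most genes, Pomc was near the median and Pcsk2 was beyond it.

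**Figure D1:**
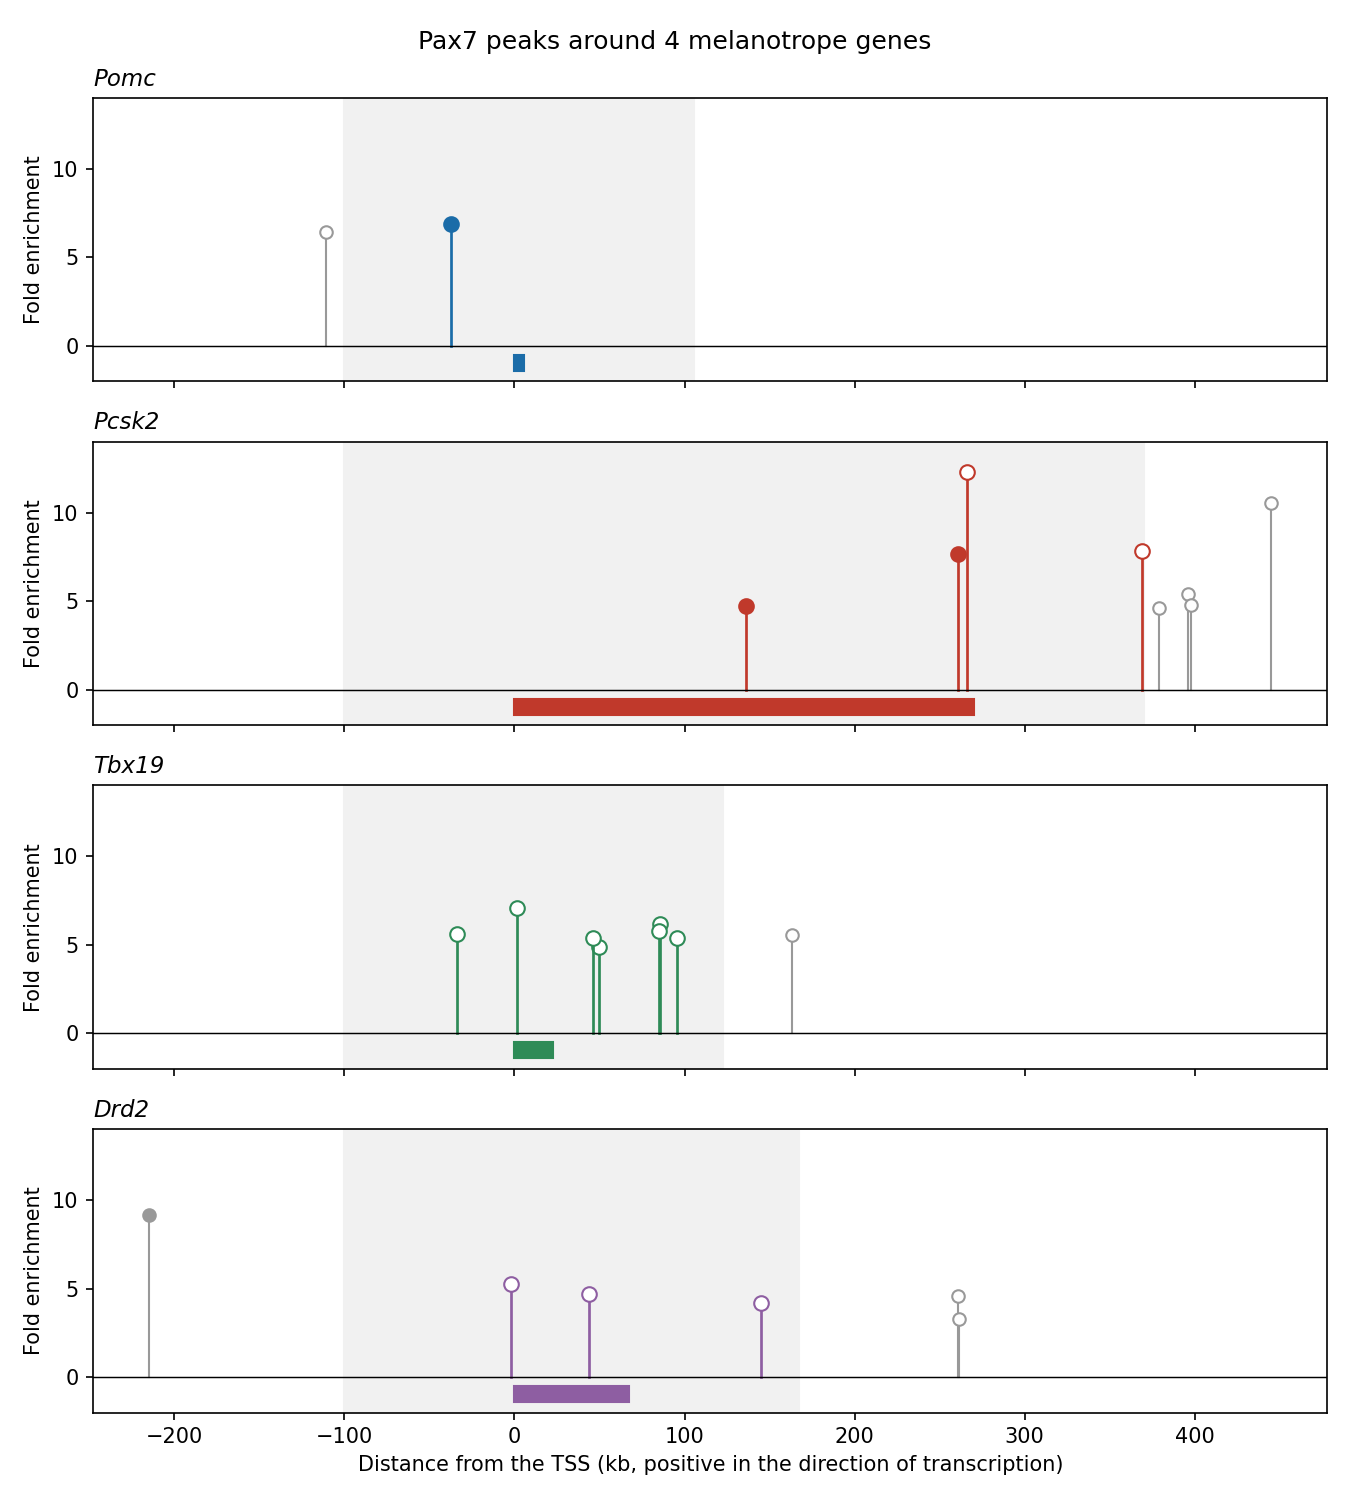
Pax7 peaks around Pomc, Pcsk2, Tbx19 and Drd2, with the distance of the summit from the TSS in kb on the x axis (positive in the direction of transcription) and the authors' fold enrichment on the y axis. The bar under the axis is the gene, grey shading is the window of 100 kb beyond either end, grey lollipops lie outside it, and filled heads have a Pax motif within 50 bp. Tbx19 had 7 peaks on both sides of its TSS, whereas Pcsk2 had none before 136 kb into the gene.

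Fold enrichment, the authors' value for ChIP over local background at the summit, had a median of 5.60 for the 15 peaks, the lowest at 4.19 and the highest at 12.3. Over all peaks the median was 5.22 and the quartiles were 4.32 and 6.74. Of the 15, 11 reached 5-fold (73.3%, 95% Wilson interval 48.0% to 89.1%, counting error only), and 54.9% of all peaks did, a value inside that interval. The Wilson intervals, here and below, take the 15 peaks as independent, although they lie at only 4 genes, so they are no test. A single peak, in Pcsk2, exceeded 10-fold (6.67% of the 15), and 6.99% of all peaks reached 10-fold. The −log10 q ranged from 6.29 to 50.6, with a median of 12.8 against 11.6 over all peaks. By gene, the 3 Drd2 peaks spanned 4.19 to 5.23, the 7 Tbx19 peaks 4.89 to 7.10 and the 4 Pcsk2 peaks 4.75 to 12.3, so the range of Tbx19 lay within that of Pcsk2, and that of Drd2 overlapped both at its upper end. The peaks were 201 to 428 bp wide, with a median of 272 bp against 252 bp for the whole list, and the median G and C content within 50 bp of the summit was 49.5% against 45.5%.

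**Figure D2:**
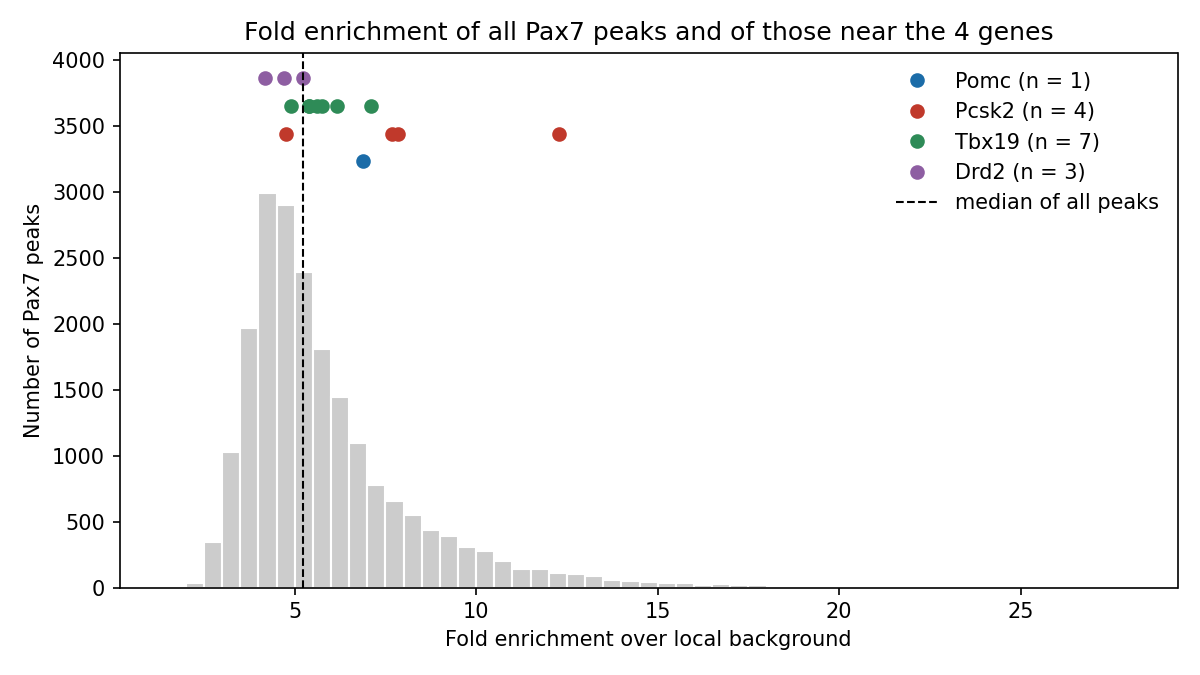
Histogram of fold enrichment (x axis, authors' ratio over local background) for all 20579 Pax7 peaks (y axis, number of peaks), with a point for each of the 15 peaks near the 4 genes and a dashed line at the median of all peaks, 5.22. The points lie within the bulk of the histogram apart from the 12.3-fold peak in Pcsk2.

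Pomc, the hormone precursor gene (chromosome 12, plus strand, 3954951 to 3960618 in mm9), had the fewest peaks. Its 1 peak ran from 3917709 to 3917980. The enrichment was 6.88-fold, with 19.4 for −log10 q, above 76.4% of all Pax7 peaks. The summit was 37.1 kb upstream of the Pomc TSS in intergenic sequence, 3.38 kb beyond the 3′ end of Dnmt3a, a DNA methyltransferase gene whose nearest annotated TSS, 11009 bp away, was closer than that of Pomc. The sequence printed above has the paired-box core at 2 places, centred 26.5 bp before and 31.5 bp after the summit. The letters GTCACG were present within 50 bp of 11.1% of all summits, and in 1.24% and 1.31% of windows of the same width centred 500 bp to the left and right. No summit lay between this peak and a point 292 kb downstream of the Pomc TSS. That interval without a summit, 329 kb, was wider than that around 64.3% of protein-coding TSSs. It includes the sequence just upstream of Pomc, where its pituitary enhancers are known to lie. The closest summit outside the window was 111 kb upstream, in an intron of Dnmt3a, with 6.45-fold enrichment.

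Pcsk2 encodes the proprotein convertase that completes POMC processing in melanotropes, and is also expressed in neurons and other endocrine cells. It is long, 270 kb (chromosome 2, plus strand, 143371892 to 143642021), and 3 of its 4 peaks were in its introns. The first ran from 143508107 to 143508378 in intron 2 of 11, 136 kb downstream of the TSS, with 4.75-fold enrichment, below the median of all peaks, and the paired-box core centred 3.5 bp from the summit. Both others were in intron 11, the last, and were 5152 bp apart. The peak from 143632711 to 143633106 had 7.67-fold enrichment and the letters ATTAGTCAC at the edge of the window, 46 bp from the summit, letters found at 1.18% of all summits.

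The strongest of the 15 peaks, at 143637925 to 143638244, reached 12.3-fold and 50.6 for −log10 q. It exceeded 97.0% of all Pax7 peaks. Within 100 kb, 6.66% of protein-coding genes had a peak at least as strong, a share not adjusted for the long window of Pcsk2, 470 kb. The peak held none of the Pax motifs. The T-box letters TCACACC were centred 2 bp from its summit, and 1.96% of all summits had them within 50 bp. The letters ACGGT, taken up below, were centred 26 bp from it, and 12.2% of all summits had them within 50 bp. A match of letters is a description and not a bound site. It lay 266 kb from the Pcsk2 TSS, and the nearest TSS of a coding gene, 50.6 kb away, was that of Bfsp1, a lens filament gene. The fourth Pcsk2 peak, from 143740574 to 143740873 with 7.85-fold enrichment, was 354 bp upstream of the TSS of Dstn, an actin-depolymerising factor, and only just inside the window, 98.7 kb beyond the end of Pcsk2.

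Around the Pcsk2 TSS itself there was no summit for 483 kb upstream and 136 kb downstream, an interval of 620 kb that was wider than that around 77.9% of protein-coding TSSs. Counted within 100 kb of the TSS alone, Pcsk2 had 0 summits. Its length bears on its count of 4: the 778 protein-coding genes within 1.5 times its length had a median of 4 summits in their windows and 2 inside the gene, against its 3. Per 100 kb of window Pcsk2 had 0.851 summits and the median protein-coding gene had 0.916. Just outside the window were a 4.59-fold peak in an intron of Dstn, 109 kb beyond the end of Pcsk2, and, 175 kb beyond it, a 10.5-fold peak in an intron of Rrbp1.

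Tbx19, the T-box factor of the POMC lineages (chromosome 1, minus strand, 167067986 to 167090904), had the most peaks. Its 7 summits exceeded the count of 92.4% of protein-coding genes, whose median was 2, and within 100 kb of the TSS alone the count was also 7, more than that of 96.0% of genes. Summits per 100 kb of window were 3.14, above 96.0% of genes. The strongest peak, at 167089060 to 167089319, reached 7.10-fold and 19.1 for −log10 q in intron 1 of 7, with its summit 1696 bp downstream of the Tbx19 TSS. It exceeded 78.5% of all peaks. It held 4 E-boxes within 50 bp of the summit, the number at least reached by 0.471% of all summits, a feature picked out after the sequences were seen.

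The remaining 6 peaks at Tbx19 ranged from 4.89-fold to 6.17-fold. Downstream of the gene, 5 of them lay in intergenic sequence between 23.1 and 72.5 kb beyond its 3′ end. They included a pair with summits 498 bp apart, at 6.17-fold and 5.76-fold, and another pair 4.00 kb apart, at 5.40-fold and 4.89-fold. The last, at 5.40-fold, was the most distant. For all 5 the nearest TSS of a protein-coding gene was one of Tbx19, the closest 34.6 kb away. Among all annotated genes a TSS of AC133891.1 or of Gm16550 was nearer to each, 34.1 to 51.5 kb away. On the upstream side the only peak, of 5.60-fold, was 33.8 kb from the Tbx19 TSS and 149 bp upstream of that of Sft2d2, a gene for a vesicle transport protein. With 65.3% G and C within 50 bp of the summit it was the most GC-rich of the 15, above 96.2% of all peaks. None of the 7 had a Pax motif within 50 bp, which only 13.7% of all summits had. An E-box lay at 6 of the 7 and at 49.7% of all summits. The closest summit outside the window was 140 kb beyond the 3′ end, with 5.58-fold enrichment.

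Drd2, the dopamine receptor gene (chromosome 9, plus strand, 49148732 to 49216282), had the weakest peaks. The one closest to its TSS ran from 49146651 to 49146851, 1976 bp upstream in intergenic sequence, at 5.23-fold and 9.89 for −log10 q, about the median of all peaks. A second, of 4.71-fold, was 43.6 kb into the gene (49192179 to 49192399), in intron 1. The last, of 4.19-fold and with the lowest −log10 q of the 15, 6.29, ran from 49293533 to 49293745 in the first intron of Ttc12, 657 bp downstream of the Ttc12 TSS and 77.4 kb beyond the end of Drd2. None of these had a Pax motif within 50 bp, which only 13.7% of all summits had. The count of 3 exceeded that of 56.9% of protein-coding genes, and at a fold enrichment of at least 5 only the peak upstream of the TSS was left. A stronger peak, of 9.15-fold and with a Pax motif, was 215 kb upstream, beyond the window.

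**Figure D3:**
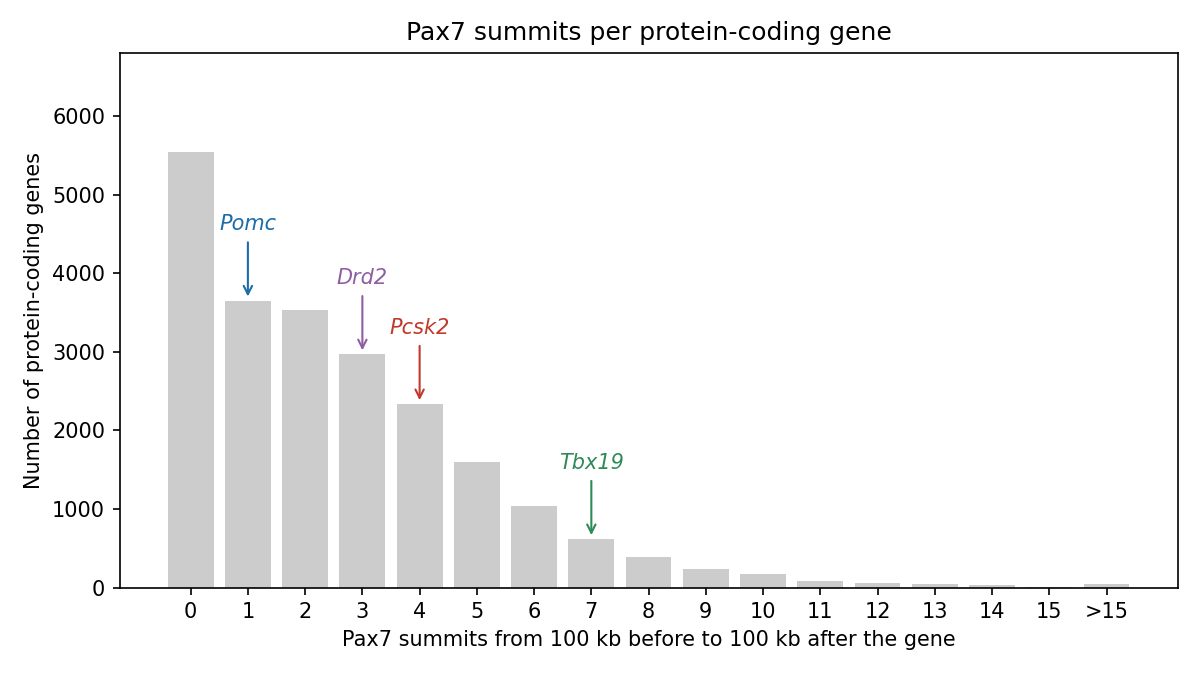
Number of protein-coding genes (y axis) by the number of Pax7 summits from 100 kb before the gene to 100 kb after it (x axis), with arrows at the counts of the 4 genes. Pomc had 1 summit, Drd2 3 and Pcsk2 4, where the quartiles over genes were 1 and 4 and the median 2. Tbx19 had 7, a count that 7.58% of genes reached or exceeded.

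At a fold enrichment of at least 5, all 4 genes kept at least 1 summit, 1 at Pomc, 3 at Pcsk2, 6 at Tbx19 and 1 at Drd2, and 61.3% of protein-coding genes did so. Of the 15 summits, 5 were in introns of 1 of the 4 genes, 7 were intergenic and 3 were within 1 kb of a TSS, which in each case belonged to another gene (Dstn, Sft2d2 and Ttc12). Over all peaks, which have no such limit to 100 kb of a chosen gene, 42.1% were intronic, 39.0% intergenic and 16.3% near a TSS. None of the 15 was in an exon away from a TSS, a class of 2.55% of all peaks. For 8 of the 15 the nearest TSS of a protein-coding gene belonged to the gene in whose window the peak was counted, and for 7 to another gene, and which gene a peak acts on was not measured.

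A Pax motif lay within 50 bp of 3 of the 15 summits (20.0%, 95% Wilson interval 7.05% to 45.2%), those at Pomc and the first 2 in Pcsk2, and of 13.7% of all summits. In the flanking windows the share over all peaks was 1.84% to the left and 1.98% to the right. The motifs were the paired-box core, the homeobox plus paired letters, which overlap the core, and the homeodomain dimers, TAAT and ATTA separated by 2 or 3 bases, all on both strands. The dimers were found at 0 of the 15, which allows a share of up to 20.0%, and at 0.831% and 0.991% of all summits. The Pitx letters TAATCC, the core bound by Pitx1, the pituitary partner of Tbx19 at Pomc, were at 0 of the 15 within 50 bp and at 6.35% of all summits. The control letters GCACTG were likewise at 0 of the 15 and at 6.86% of all summits. With 15 peaks these shares do not separate the set from the list.

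The other genes of the pituitary were counted in the same way. In each list the share of genes with at least 1 summit within 100 kb is to be set against the 75.2% of all protein-coding genes. Among the enzymes and granule proteins that process and store peptide hormones, 6 of 7 had a summit. Scg5, which encodes the chaperone of PC2, had 5 with a highest fold enrichment of 12.9, Cpe, the carboxypeptidase that trims POMC peptides, had 5 with 6.57, and Pam, the amidating enzyme, had 4 with 8.54. Chga, the granule protein chromogranin A, had none.

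Of the pituitary lineage factors, 10 of 11 had a summit, with a median of 1 per gene. Lhx4 had 4, with a highest fold enrichment of 13.5, and Hes1 had 4 with 5.48, and the nearest summit to the TSS of Lhx4 was 0.899 kb away. Pou1f1, which drives the growth hormone, prolactin and thyrotropin lineages, had none, with its nearest summit 273 kb from the TSS. All 4 receptors of the corticotrope had summits: Nr3c1, the glucocorticoid receptor, had 10 with a highest value of 12.5, Lifr had 4 with 9.83 and Crhr1, the receptor for corticotropin-releasing hormone, had 3 with 10.8.

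The hormone genes of the other pituitary lineages were split, with 3 of 6 having a summit. Cga, the common subunit of the glycoprotein hormones, had 5 with a highest value of 10.7. Gh, growth hormone, had 4 with 14.1 and Lhb had 3 with 4.80. Prl, Tshb and Fshb had none, with their nearest summits 125, 112 and 104 kb from the TSS. Of the melanocortin receptors, through which the peptides of Pomc act, 3 of 5 had a summit, with no value above 5.23: Mc3r had 3, Mc1r 1 and Mc2r 1, and Mc4r and Mc5r had none. The 4 dopamine receptor genes other than Drd2 had 2 to 4 summits each, among them Drd3 with 4 and Drd1a and Drd4 with 3 each.

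For contrast, all 9 muscle progenitor genes had a summit, with a median of 6 per gene, against 3.5 for the 4 melanotrope genes and 2 for all protein-coding genes. Met, the receptor of migrating precursors, and Myod1, the myogenic bHLH factor, had 7 each with highest values of 13.4 and 12.9, and Cdh15 (M-cadherin) had 7 with 8.22. The count at Tbx19 was thus as high as the highest of the muscle genes, although its strongest peak, 7.10-fold, was below that of each of those 3. Within 100 kb of the TSS alone the medians were 1.5 for the melanotrope genes, 6 for the muscle genes and 2 for all protein-coding genes. The genes of a list differ in length and gene density, and no test of a difference between lists was made.

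**Figure D4:**
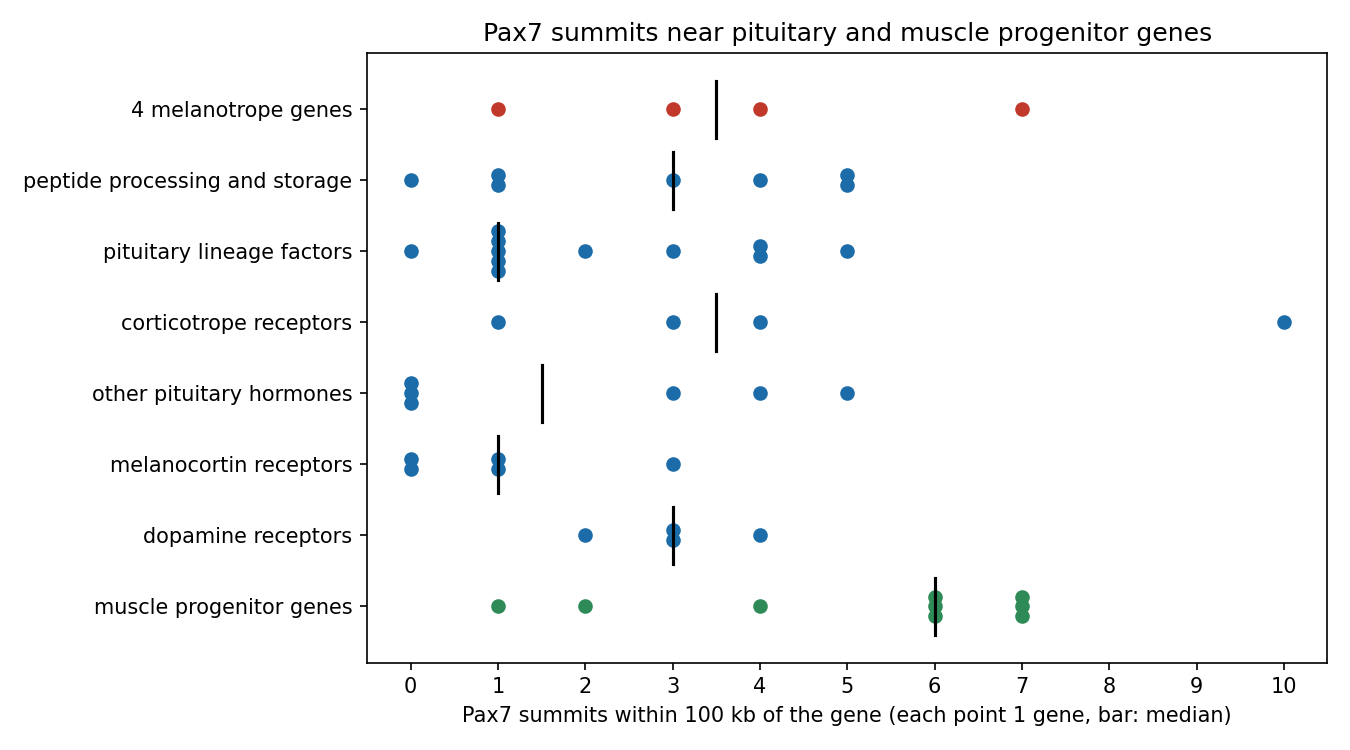
Number of Pax7 summits within 100 kb (x axis) for each gene (points) of the 4 melanotrope genes, 6 other lists and the muscle progenitor genes (rows), with the median of each list as a bar. The melanotrope genes range from 1 to 7 and the muscle progenitor genes from 1 to 7, with medians of 3.5 and 6.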

How the data were processed

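The deposited file is 1 list of Pax7 peaks of Dox-treated iPax7 cells. Per the methods, single-end reads were mapped by the authors with bowtie2 (mm9), filtered to unique alignments, cleared of duplicates in Picard, and merged over replicates before MACS2 peak calling, for which the maximum q-value was 0.01. The fold enrichment is a ratio computed by the authors, and the deposited list also gives a p-value and a q-value on the −log10 scale, the summit as an offset in bp, and a score, which is −log10 q times 10 without its decimals. Neither the p-value nor the score was used. Columns of per-sample values that belong to no sample numbered 0.

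Coordinates are 1-based on NCBIM37 (mm9), the build the methods name, with GENCODE vM1. Each summit was classed as within 1 kb of an annotated TSS, then exon, intron or intergenic. Motifs were searched within 50 bp, and percentages over genes refer to 22350 protein-coding genes. Named by rule were the 4 genes with all their peaks and, of 7 other lists, the 3 genes with most summits and those with none, except for a gene that is not reported here. The genes and lists were chosen with earlier results of these data known. Counting, merging and motif search were tested on simulated data. Tools were samtools 1.23.1, matplotlib 3.10.9, Python 3.11.15, scipy 1.17.1, pysam 0.24.0 and numpy 2.4.6. Alternatives were other windows, strength cut-offs, peak overlap, merging and motif distances.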

Additional observations from a re-analysis of the deposited data

How the results depend on the processing

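The counts rest on the width of the window. With 250 kb on either side the total rose from 15 to 24, with 2 at Pomc, 8 at Pcsk2 and 6 at Drd2, and the share of protein-coding genes with a summit rose from 75.2% to 87.2%. With 50 kb, Tbx19 kept 4 of 7 and the share was 62.1%. A fold enrichment of at least 5 left 1 at Drd2 and a share of 61.3%, and a −log10 q of at least 5 a share of 73.9%. Within 25 bp of the summit 1 peak had a Pax motif (6.67%, and 8.81% of all summits). Within 50 bp 3 peaks had one (20.0%, and 13.7% of all summits). Counting from the TSS alone, an alternative chosen after seeing the data, gave 0 at Pcsk2. In 43 recomputed values, 31 stayed within 1.5 times of the count reported, or for the median and the share within their spread, and the 12 given here moved. No library could be left out because the list was called on merged libraries. No paired analysis was possible because the list has 1 pooled column and its result comes from no test.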

Other observations

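The summit sequences were also read for letters that the motifs above do not cover. ACGGT, which completes the paired-box core in the longer Pax recognition sequence, was picked out after the sequences were seen. It lay within 50 bp of 6 of the 15 summits (40.0%, 95% Wilson interval 19.8% to 64.3%, counting error only), namely the Pomc peak and, numbered along the chromosome, Pcsk2 peaks 3 and 4, Tbx19 peaks 1 and 5 and Drd2 peak 2. Over all 20579 summits the share was 12.2%, and in windows 500 bp to the left and right it was 3.81% and 4.23%. At the 15 peaks the flanking windows held it 0 and 2 times. The letters were centred 4 bp from the summit of Pcsk2 peak 4 and 3 bp from that of Drd2 peak 2. At the Pomc peak they overlapped the core GTCACG. At the other peaks with ACGGT no paired-box core lay within 50 bp, so there the letters completed none. Together, 8 of the 15 had a Pax motif or ACGGT and 7 had neither. Over all summits 13.7% had a Pax motif and 12.2% had ACGGT, and the share with either was not computed. The count of 8 therefore has no share to be set against. Since the letters were chosen from these 15 sequences, the 40.0% and the count of 8 describe them and are no test.

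The median distance to the nearest other Pax7 summit was 9.97 kb for the 15 peaks and 19.8 kb over all peaks, but the 15 were split, with 8 below the median of all peaks and 7 above it. Those below were Tbx19 peaks 1 to 5 and Pcsk2 peaks 2 to 4. The most isolated were Pcsk2 peak 1, at 125 kb, Drd2 peak 3, at 101.3 kb, and the Pomc peak, at 73.8 kb.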
